A study of Homo sapiens with 6 samples.

Results

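Integrins and laminins, the cell surface receptors for extracellular matrix and a main matrix protein of basement membranes, were examined in a single established cell line, MIA PaCa-2, which derives from a human pancreatic carcinoma. All genes whose symbol is that of an integrin alpha subunit, an integrin beta subunit or a laminin chain were taken, which gave 38 of the 35993 genes in the deposited table, 26 integrins and 12 laminins. The rule used symbols and no measured value. The untreated group and the group given 4 µM of rhCYGB for 48 h, a recombinant human cytoglobin made in E. coli, had 3 libraries each. Both groups were the same parental line, with no genetic change named in the labels, and were kept in reduced-serum medium before the protein was added. The sources used here do not say whether untreated cells received the protein's buffer. The study speaks of independent experiments for its data in general, but the labels do not tie single libraries to separate cultures, so the p-values measure the spread between these libraries, which may be technical.

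An integrin is a pair of an alpha and a beta subunit that spans the membrane, binds matrix outside the cell, and is linked to actin inside it by talin, kindlins and vinculin. The alpha subunit largely sets the ligand, and ITGB1 is the partner of most alpha subunits, whereas ITGAV also pairs with other beta subunits and ITGA6 also pairs with ITGB4 in hemidesmosomes. A laminin is a trimer of an alpha, a beta and a gamma chain. Carcinoma cells both secrete laminin and use integrins to adhere and migrate on it.

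Read counts on genes summed to between 34838399 and 42271299 per library. Depth, scaling and the fit are those of the whole table, in which 14728 genes had enough counts for a test. Fold changes and p-values come from edgeR (quasi-likelihood fit), and p-values were adjusted by the Benjamini-Hochberg method over that whole set. A gene passed the test at an adjusted p under 0.05, and a 2-fold call also needed a fold change of at least 2. CPM values are counts relative to the TMM-scaled library size, and FPKM values, used wherever different genes are compared, are the deposited values per kilobase of transcript. The labelled cell type was checked against markers. KRT8, KRT18 and KRT19, keratins of simple and ductal epithelium, had mean FPKM of 1075, 1086 and 175 in untreated cells, but EPCAM had 0 counts in every library and CDH1 was near 0, while the mesenchymal filament VIM was at 3468. After rhCYGB these keratins were at 546, 996 and 102 and VIM at 4535. In the test KRT8 and KRT19 passed as lower (log2 fold change -0.81 and -0.61) and VIM as higher (0.55). KRT18 did not pass (0.04, adjusted p = 0.316 from edgeR's test), and its groups overlapped in CPM. The 5 epithelial markers summed to between 2270 and 2370 FPKM in untreated and between 1600 and 1710 in rhCYGB libraries, and the 3 mesenchymal markers, of which CDH2 was at 0, to between 3460 and 3490 and between 4400 and 4690. Of the 7 fibroblast or stellate markers, DCN and LUM were at 0 in all libraries, and the summed FPKM of the list lay between 28.9 and 31.5 in untreated and between 3.48 and 3.92 in rhCYGB libraries, with COL1A2 at a mean of 26.1 and 1.12 and ACTA2 at 2.97 and 2.49. The 5 leukocyte markers summed to between 2.64 and 2.77 FPKM in untreated and between 0.115 and 0.167 in rhCYGB libraries, with PTPRC and CD3E among those at 0. The 3 endothelial markers summed to between 25.2 and 27.8 and between 2.16 and 2.72 FPKM, from CDH5, with PECAM1 at 0. The part of all these shifts in the results was not tested. In bulk libraries, fewer cells of a type and less RNA per cell cannot be told apart.

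The members did not move together. ITGB1, the common beta subunit, rose 1.49-fold, while its most abundant alpha partners fell, ITGA3 by 1.54-fold, ITGAV by 2.18-fold, ITGA6 by 1.92-fold and ITGA5 by 1.84-fold. Of the laminin chains, LAMC1 rose 1.22-fold and LAMB1, LAMA2 and LAMA5 fell. The gene with the largest fold change was ITGB8, which fell 10.6-fold. Of the 38 members, 25 had enough counts for the test. Among these, 18 passed it (72.0%, against 77.6% of all genes tested), 4 higher and 14 lower after rhCYGB. Of all genes tested, 39% passed higher and 38.6% lower. At the filter, 21 of the 25 reached the count minimum in all libraries of both groups, and ITGA2, ITGA7, ITGA9 and ITGAM passed only through the group in which they were higher, so a call for them says less. By 2-fold or more, 9 differed (36.0%, against 27.1% of all genes), 1 higher against a background of 12.4% and 8 lower against a background of 14.7%. The median log2 fold change was -0.62 over the 25 members and -0.0046 over all genes tested. It was -0.91 over 10 alpha subunits, -0.27 over 5 beta subunits and -0.31 over 10 laminin chains. In CPM, the 3 rhCYGB libraries lay wholly above the untreated ones for 4 members (39.8% of all genes tested did) and wholly below for 17 (39.7% did).

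**Figure D1:**
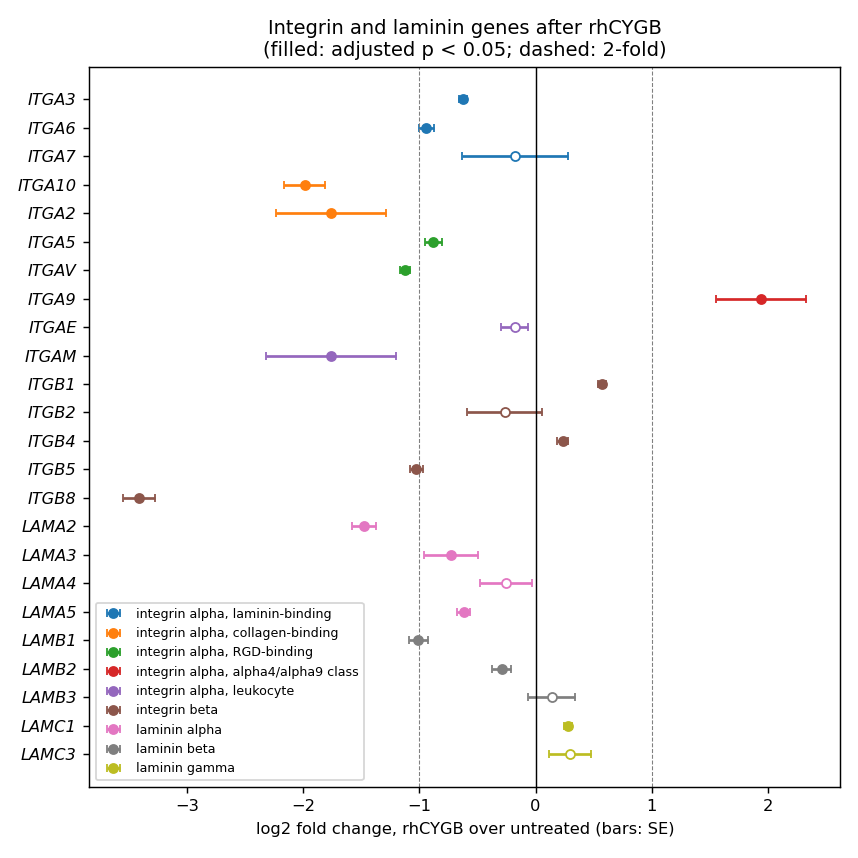
Log2 fold change of the tested integrin and laminin genes named in the text, rhCYGB over untreated (x axis), with bars of 1 standard error from edgeR's test. Filled points passed an adjusted p under 0.05, open points did not, colours mark subunit classes, and dashed lines mark 2-fold. ITGB8 lies farthest left at -3.41, and ITGB1, ITGB4, LAMC1 and ITGA9 are the filled points right of 0.

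Promoter sequences are shown for the members the results turn on, ITGB1 and LAMC1, which rose under every alternative run, and ITGB8, ITGAV, LAMB1 and LAMA2, which fell by 2-fold or more. RefSeq starts were available for 26 of the 38 members, 18 of them among the 25 tested. Each sequence is the 250 bases before the RefSeq start on GRCh38.p14, written 5′ to 3′ on the gene's strand, with the first listed start where a gene has several. As a check, bases after the start were searched in annotated transcripts of the gene. They were found for all shown genes but LAMC1, so the start of LAMC1 is less certain. They are ITGB1 (chr10:32958231-32958480, minus strand), ITGB8 (chr7:20330650-20330899, plus strand), ITGAV (chr2:186589806-186590055, plus strand), LAMC1 (chr1:183023170-183023419, plus strand), LAMB1 (chr7:108003162-108003411, minus strand) and LAMA2 (chr6:128882888-128883137, plus strand). Capitals mark matches on either strand. The GC box was searched as GGGCGG. The AP-1 site was searched as TGANTCA and the TEAD site was searched as GGAATG. The letters of the TATA box were TATAAA, and those of an ATF4 element were TGATGCAA.
ITGB1: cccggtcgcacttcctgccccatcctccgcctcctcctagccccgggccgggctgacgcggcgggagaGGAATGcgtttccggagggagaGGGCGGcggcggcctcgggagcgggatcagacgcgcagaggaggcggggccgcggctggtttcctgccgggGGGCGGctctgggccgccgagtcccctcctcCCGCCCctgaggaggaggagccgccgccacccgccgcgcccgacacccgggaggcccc
ITGB8: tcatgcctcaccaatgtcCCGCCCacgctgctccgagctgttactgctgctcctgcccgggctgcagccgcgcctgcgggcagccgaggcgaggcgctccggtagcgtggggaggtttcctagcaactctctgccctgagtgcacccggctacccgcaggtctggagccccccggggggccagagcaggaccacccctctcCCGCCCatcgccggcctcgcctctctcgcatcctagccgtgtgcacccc
ITGAV: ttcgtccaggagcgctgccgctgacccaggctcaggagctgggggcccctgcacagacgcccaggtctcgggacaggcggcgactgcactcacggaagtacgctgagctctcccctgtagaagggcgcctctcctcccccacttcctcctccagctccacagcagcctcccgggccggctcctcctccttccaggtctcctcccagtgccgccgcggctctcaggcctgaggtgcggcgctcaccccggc
LAMC1: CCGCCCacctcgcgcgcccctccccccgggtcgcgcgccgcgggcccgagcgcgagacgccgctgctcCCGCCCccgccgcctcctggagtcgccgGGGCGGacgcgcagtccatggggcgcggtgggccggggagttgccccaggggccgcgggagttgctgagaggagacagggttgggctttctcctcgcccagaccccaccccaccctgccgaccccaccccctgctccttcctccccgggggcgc
LAMB1: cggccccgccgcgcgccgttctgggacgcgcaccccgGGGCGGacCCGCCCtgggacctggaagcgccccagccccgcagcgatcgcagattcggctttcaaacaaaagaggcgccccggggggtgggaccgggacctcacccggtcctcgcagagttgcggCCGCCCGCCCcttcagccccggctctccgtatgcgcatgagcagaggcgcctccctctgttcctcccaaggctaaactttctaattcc
LAMA2: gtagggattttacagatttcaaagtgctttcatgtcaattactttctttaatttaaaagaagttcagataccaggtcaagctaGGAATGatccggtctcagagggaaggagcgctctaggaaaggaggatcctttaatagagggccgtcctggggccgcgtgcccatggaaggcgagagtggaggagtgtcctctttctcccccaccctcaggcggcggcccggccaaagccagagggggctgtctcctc
The capital runs show 3 GC boxes and 1 TEAD match in ITGB1, 2 GC boxes in ITGB8, 3 in LAMC1 and 4 in LAMB1, of which the last 2 share bases. LAMA2 held 1 TEAD match and ITGAV none of the 5 motifs. The GC content was 53.2% for LAMA2 and between 70.4% and 79.6% for the other 5. Over the 18 tested members with a sequence, 13 held a GC box in the window of at least 1 listed start, 4 a TEAD match, 2 an AP-1 match, 2 a TATA box and 1 (ITGB5) the ATF4 element. Of all 35116 promoter windows of this length, 42.6%, 11.9%, 6.57%, 10.7% and 0.772% held these motifs in the same order of GC box, TEAD, AP-1, TATA box and ATF4 element. The member counts took any listed start of a gene, whereas these percentages are per window, so counts and percentages cannot be compared directly. The motifs are matches of letters and not shown binding sites, and no test compared them between genes that rose and genes that fell.

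ITGB1 (chromosome 10, 33189246 to 33247158 in the deposited table, whose build is not named) was the most abundant member. It had 36099, 43529 and 41189 counts in untreated libraries 1, 2 and 3 and 54439, 47882 and 54538 in rhCYGB libraries 1, 2 and 3. The groups did not overlap, at 983 ± 23.0 CPM in untreated and 1461 ± 20.4 CPM in rhCYGB-treated cells (mean ± SD, n = 3 libraries each). The log2 fold change was 0.57 (SE 0.032, adjusted p = 1.84e-10 from edgeR's test). ITGB4, the hemidesmosomal beta subunit, had a log2 fold change of 0.24 (SE 0.048, adjusted p = 3.80e-04 from edgeR's test), from 160 ± 3.58 to 188 ± 14.04 CPM. This call depended on the scaling, because with library totals or upper-quartile factors the value was 0.07 or 0.09 and did not pass, while all genes tested then had a median of -0.17 or -0.15.

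The other beta subunits fell or were rare. ITGB8 (chromosome 7, 20370523 to 20455377), which pairs with ITGAV and is known for activating latent TGF-beta, had 396, 472 and 415 counts in untreated and 38, 31 and 36 in rhCYGB libraries. Mean CPM was 10.4 ± 0.239 against 0.977 ± 0.046, and the log2 fold change was -3.41 (SE 0.135, adjusted p = 3.85e-12 from edgeR's test), with no overlap. ITGB5, the vitronectin-binding partner of ITGAV, had 1945, 2408 and 2167 counts against 1043, 807 and 948. That is a log2 fold change of -1.03 (SE 0.057, adjusted p = 2.09e-10 from edgeR's test). Over the alternatives the ITGB5 value lay between -1.19 and -0.98, so its 2-fold call is marginal. ITGB2, the leukocyte beta subunit, had between 18 and 29 counts in every library and did not pass (log2 fold change -0.27, adjusted p = 0.466 from edgeR's test). The ITGAV partners ITGB3 and ITGB6 were too rare to test, with at most 14 and 10 counts, and ITGB7 had 0 counts throughout.

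Of the alpha subunits that bind laminin, ITGA3 and ITGA6 fell. ITGA3 (chromosome 17, 48133474 to 48167845), the receptor subunit for laminins of epithelial basement membranes, had 15703, 18508 and 16606 counts in untreated and 9801, 8873 and 10182 in rhCYGB libraries. Every rhCYGB library was below every untreated one, and the log2 fold change was -0.62 (SE 0.035, adjusted p = 2.69e-10 from edgeR's test). ITGA6 had 1534, 1882 and 1874 counts against 813, 718 and 878, and it fell with a log2 fold change of -0.94 (SE 0.062, adjusted p = 1.44e-09 from edgeR's test). ITGA7, the third laminin-binding subunit and best known from muscle, had between 6 and 24 counts and did not pass.

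The subunits that recognise the RGD motif of fibronectin and vitronectin also fell. ITGAV (chromosome 2, 187454783 to 187545629) had 3057, 3687 and 3422 counts in untreated against 1406, 1287 and 1379 in rhCYGB libraries, a log2 fold change of -1.12 (SE 0.044, adjusted p = 2.93e-12 from edgeR's test). ITGA5, the fibronectin receptor subunit, had 1006, 1224 and 1106 against 488, 525 and 566 counts, a log2 fold change of -0.88 (SE 0.071, adjusted p = 1.81e-08 from edgeR's test). The groups were apart for both genes, but only ITGAV reached 2-fold in the main fit. ITGA5 reached it with upper-quartile factors (-1.02), library totals (-1.05) and limma on log2(FPKM + 0.1) (-1.02), so its place below 2-fold is marginal. ITGA2B had at most 8 counts and ITGA8 none.

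Of the collagen-binding subunits 2 were tested, both at low levels, and both were called lower by 2-fold. ITGA10, known from cartilage, had 208, 222 and 245 counts in untreated and 62, 43 and 44 in rhCYGB libraries (log2 fold change -1.99, SE 0.177, adjusted p = 5.83e-08 from edgeR's test). ITGA2, the main collagen receptor subunit of epithelia, had 18, 42 and 24 against 4, 11 and 6 counts, a log2 fold change of -1.76 (SE 0.472, adjusted p = 0.00329 from edgeR's test). It passed the filter through the untreated group alone, and its call was lost with limma on log2(FPKM + 1), where the value was -0.08. ITGA1 had at most 4 counts and ITGA11 none.

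A single alpha subunit rose, on few reads. ITGA9, a partner of ITGB1 that binds tenascin and VCAM1, had 7, 12 and 7 counts in untreated and 38, 25 and 25 in rhCYGB libraries, a log2 fold change of 1.94 (SE 0.390, adjusted p = 3.33e-04 from edgeR's test). It passed the filter on low counts through the group in which it was high, and its call was lost with limma on log2(FPKM + 1). Its locus overlaps ITGA9-AS1, which had 23 counts over all libraries, and the sources used here do not say whether the counting used strand. ITGA4, of the same class, had 7 counts in a single rhCYGB library and 0 elsewhere.

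Leukocyte subunits were scarce in these carcinoma cells, apart from ITGAE at a mean of 1.73 FPKM in untreated cells. ITGAM, which pairs with ITGB2 in the complement receptor of myeloid cells, had 47, 53 and 50 counts in untreated and 0, 20 and 18 in rhCYGB libraries. Its log2 fold change was -1.76 (SE 0.561, adjusted p = 0.00994 from edgeR's test), a call that was lost with the DESeq2 Wald test (adjusted p = 0.187). Its filter was met through the untreated group, and without the first rhCYGB library, which had 0 counts, the value was -1.16. CD14, the myeloid marker in the list above, moved in the same direction with a log2 fold change of -4.18, and its part in the result for ITGAM was not tested. ITGAE, the partner of ITGB7 and a receptor for E-cadherin, did not pass at -0.18 (SE 0.116, adjusted p = 0.176 from edgeR's test), but passed with upper-quartile factors, library totals and both limma fits (values between -0.34 and -0.21). It overlaps HASPIN, which had 3083 counts to its 1545. ITGAL and ITGAX had at most 6 and 12 counts and ITGAD 0.

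**Figure D2:**
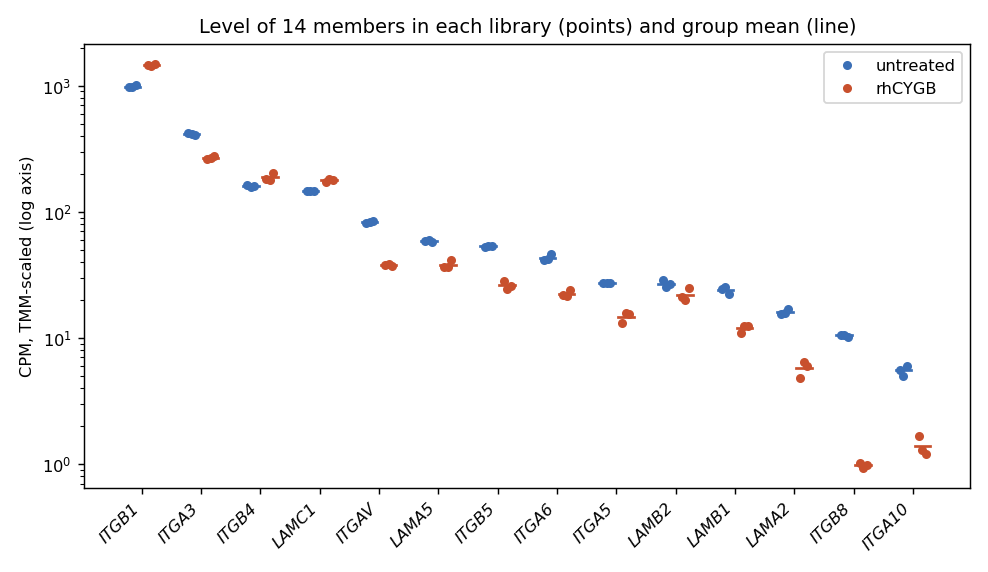
CPM (log axis) of 14 members in each of the 6 libraries, blue for untreated and red for rhCYGB, with a line at each group mean. The groups are apart for all 14 selected genes, with rhCYGB above untreated for ITGB1, ITGB4 and LAMC1 and below for the other 11. Of all genes tested, 79.5% had groups that were apart.

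Compared per length, ITGB1 stood at 245 ± 7.56 FPKM in untreated cells (n = 3 libraries), followed by ITGA3 at 78.9 ± 0.835, ITGB4 at 26.3 ± 0.470, LAMC1 at 17.2 ± 0.206 and ITGB5 at 11.1 ± 0.205. ITGAV, with 10.8, 10.9 and 11.2 FPKM in the 3 libraries, overlapped ITGB5 in the range over libraries, so their order is not set. ITGA6 (6.98 ± 0.462), ITGA5 (5.95 ± 0.060) and LAMA5 (4.77 ± 0.043) came next without overlap between neighbours. LAMB2 (4.41 ± 0.263) and LAMB1 (3.94 ± 0.250) overlapped each other.

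Summed over the family, integrin alpha transcripts were lower relative to beta transcripts in every rhCYGB library than in every untreated one. The alpha subunits summed to 106, 105 and 106 FPKM in untreated and to 57.4, 56.5 and 61.0 in rhCYGB libraries. The beta subunits summed to 279, 280 and 293 FPKM in untreated and 360, 343 and 371 in rhCYGB libraries. The ratio of alpha to beta, chosen after the values were seen, was thus 0.382, 0.377 and 0.363 against 0.159, 0.165 and 0.164. A ratio within a library does not depend on how libraries are scaled to each other. The ratio of ITGB1 to ITGA3, also chosen afterwards, was 3.11 ± 0.121 in untreated and 7.11 ± 0.138 in rhCYGB libraries (n = 3 each). Both are given as descriptions only, although they are among the 51 shares and log2 ratios adjusted together below. For shares and fixed ratios, the exact two-sided permutation test of 3 against 3 libraries cannot give a p below 0.1, which is 0.155 after Benjamini-Hochberg adjustment over 51 shares and log2 ratios.

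Within each sum, the leading gene took a larger share. ITGB1 held 86.0%, 86.3% and 86.7% of the beta FPKM in untreated and 91.0%, 91.1% and 90.4% in rhCYGB libraries. ITGA3 held 75.1%, 74.5% and 73.7% of the alpha FPKM against 78.7%, 78.3% and 78.5%, although its own level fell. The share of RGD-binding alpha subunits differed by -3.27 percentage points (rhCYGB minus untreated), to 12.7 ± 0.515%, and that of collagen-binding subunits from 1.03 ± 0.068% to 0.424 ± 0.062%. The shares of ITGB5 and ITGB8 among beta subunits went from 3.93% to 1.37% and from 0.382% to 0.0251% on average. Each of these gaps was larger than the spread between libraries of a group, with an exact permutation p of 0.1, the smallest possible. All 38 genes together took between 0.212% and 0.222% of the counts in either group, with overlapping ranges, and ITGB1 alone made up between 46.9% and 48.2% of that in untreated and between 62.9% and 64.3% in rhCYGB libraries.

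**Figure D3:**
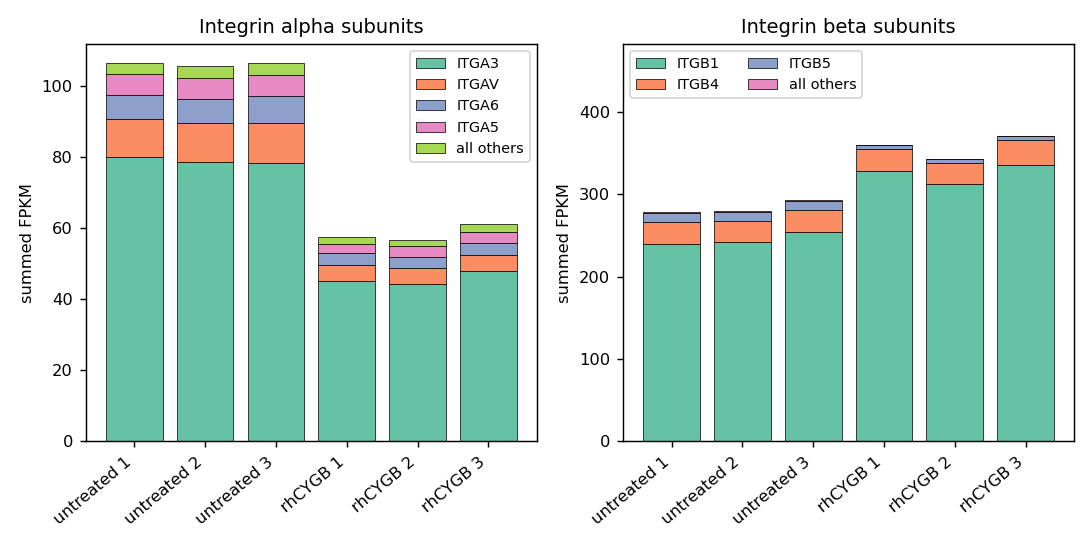
Summed FPKM (y axes, from 0) of integrin alpha subunits on the left and beta subunits on the right in each library, stacked by gene. The alpha bars stand near 106 in untreated and between 56.5 and 61.0 in rhCYGB libraries, while the beta bars are taller after rhCYGB, from ITGB1.

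Among the laminins, the gamma chain LAMC1 and its usual beta partner LAMB1 moved apart. LAMC1 (chromosome 1, 182992555 to 183114727), the gamma chain of most laminins, had 5441, 6541 and 5998 counts in untreated and 6435, 6004 and 6639 in rhCYGB libraries, or 146 ± 0.622 against 178 ± 4.08 CPM. The log2 fold change was 0.28 (SE 0.036, adjusted p = 3.54e-06 from edgeR's test), it lay between 0.11 and 0.31 over all alternatives, and it passed in each. LAMB1 (chromosome 7, 107564244 to 107643606) had 902, 1137 and 901 against 403, 410 and 460 counts, a log2 fold change of -1.01 (SE 0.079, adjusted p = 1.21e-08 from edgeR's test). Over the alternatives the LAMB1 value lay between -1.17 and -0.85, so its 2-fold call is marginal. The ratio of LAMC1 to LAMB1, chosen after the values were seen and given as a description, was 4.30, 4.10 and 4.74 in untreated and 11.4, 10.4 and 10.3 in rhCYGB libraries. LAMB2, the beta chain that can replace LAMB1, fell less, with a log2 fold change of -0.29 (SE 0.078, adjusted p = 0.00319 from edgeR's test), and its share of the beta chain FPKM went from 49.7 ± 2.17% to 58.7 ± 1.86%.

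The alpha chains, which carry the main receptor-binding domains of laminin, fell in 3 of the 4 tested cases, LAMA5, LAMA2 and, on few counts, LAMA3. Of all genes tested, 38.6% were lower. LAMA5, the most abundant, had 2176, 2655 and 2363 counts in untreated and 1365, 1205 and 1530 in rhCYGB libraries, a log2 fold change of -0.62 (SE 0.055, adjusted p = 6.04e-08 from edgeR's test). LAMA2 (chromosome 6, 129204283 to 129837711), known from the basement membrane of muscle and nerve, had 579, 706 and 686 against 180, 214 and 222 counts, a log2 fold change of -1.48 (SE 0.106, adjusted p = 4.33e-09 from edgeR's test). Its share of the alpha chain FPKM was 22.3%, 22.3% and 24.1% against 11.1%, 15.1% and 12.8%, and the groups did not overlap. That sum includes LAMA4, whose own share went from 3.83 ± 0.460% to 11.9 ± 3.36% although its counts did not rise. The part of LAMA4 in the shares of LAMA2 and LAMA5 was not tested. LAMA4, the chain of vascular laminins, gave opposite directions in counts and FPKM. Its log2 fold change was -0.25 from counts (SE 0.225, adjusted p = 0.318 from edgeR's test), but 0.61 with limma on log2(FPKM + 0.1) (adjusted p = 0.0156). In rhCYGB libraries between 6.82% and 26.7% of its counts were assigned to the transcript NM_001105208, which had at most 7.46% in untreated libraries. LAMA1 had 0 counts.

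The chains LAMA3 and LAMB3, known from the laminin that anchors epithelia, were rare. LAMA3 had 76, 88 and 79 counts in untreated and 33, 42 and 53 in rhCYGB libraries, a log2 fold change of -0.73 (SE 0.236, adjusted p = 0.0111 from edgeR's test), and its call was lost with limma on log2(FPKM + 1) (-0.09, adjusted p = 0.0564). LAMB3 had between 73 and 125 counts, with overlapping groups (log2 fold change 0.14, SE 0.204), and went below 0 with library totals and upper-quartile factors. Relative to LAMB1, LAMB3 stood at a log2 ratio of FPKM of -2.94 ± 0.226 in untreated and -1.82 ± 0.307 in rhCYGB libraries (exact permutation p = 0.1, the smallest possible, n = 3 each). LAMC3 did not pass (log2 fold change 0.30, SE 0.181), but without the second rhCYGB library it did (0.43, adjusted p = 0.0428 from edgeR's test), and without the third the value was 0.07. LAMB4 had 0 counts. Where a member had 0 counts, the depth allows up to 3 counts per library, or between 0.0669 and 0.0902 CPM, as the limit that counting error sets.

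**Figure D4:**
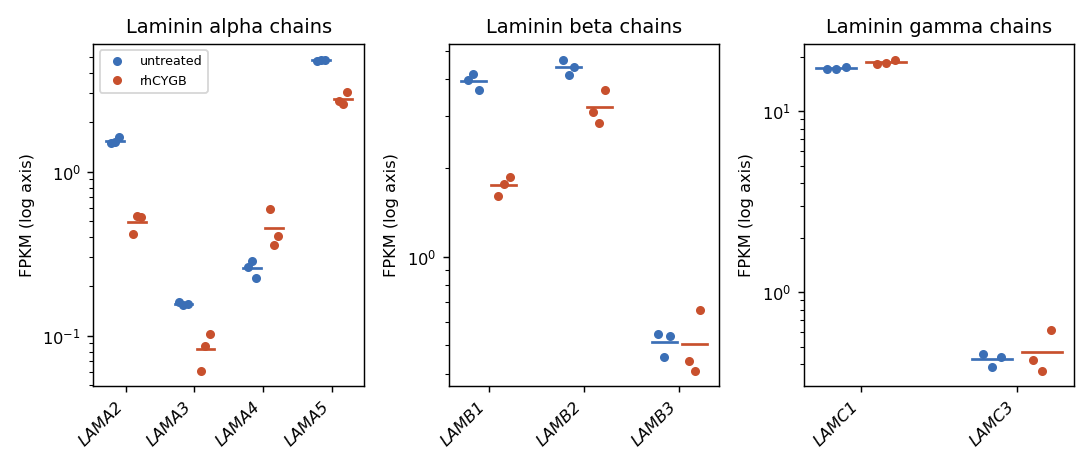
FPKM (log axes) of the laminin alpha, beta and gamma chains named in the text that had counts, in each library, blue for untreated and red for rhCYGB, with a line at the group mean. LAMA2, LAMA3, LAMA5, LAMB1 and LAMB2 are lower in all rhCYGB libraries. LAMC1 is higher, as is LAMA4 in FPKM but not in counts, and LAMB3 and LAMC3 overlap.

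Counts of single transcripts varied far more between libraries than those of genes. Of the members, 17 transcripts of 6 genes could be tested for a change of their share within the gene with edgeR's diffSpliceDGE. None passed an adjusted p under 0.05 (2.4% of all transcripts tested did), 3 had an unadjusted p under 0.05, and the smallest adjusted p was 0.250. In simulated counts with the spread of these libraries, the test found 75 of 200 transcripts changed 16-fold and 8 of 199 changed 4-fold, so most shifts of such sizes would be missed. ITGB1 was mainly its widespread variant 1A, NM_002211, with 84.2%, 86.5% and 82.8% of the gene's counts in untreated and 94.8%, 96.8% and 89.8% in rhCYGB libraries (unadjusted p = 0.783 from edgeR's usage test). For ITGB1, the muscle variant 1D, NM_033668, had 3158 counts in the second untreated library and between 8 and 45 in the others, so its share rests on that library. For ITGAV, NM_001145000 had 32.1%, 17.4% and 8.07% of counts in untreated and 54.1%, 59.4% and 35.5% in rhCYGB libraries. The groups did not overlap, but the adjusted p was 0.278 from edgeR's usage test. ITGA6 had 46.2%, 56.7% and 33.8% of its counts on NM_001079818 (variant 1) in untreated and 33.5%, 39.8% and 56.2% in rhCYGB libraries, with overlapping groups. In 5 of 6 libraries the ITGA2 counts were assigned to NR_073105, a noncoding transcript of the locus. All or nearly all LAMA3 counts went to the long form NM_198129.

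The genes that couple integrins to actin went both ways. Of 32 such genes 29 were tested, 14 rose and 13 fell, and the median log2 fold change was -0.062. Of all genes tested, 39% were higher and 38.6% lower at that threshold. Among the 14, PXN, CRK, ACTN1 and PTK2 had log2 fold changes of 0.14, 0.15, 0.095 and 0.12. The mean FPKM of these genes was lower after rhCYGB, so the count of rises depends on the measure. By 2-fold or more 1 rose and 5 fell, against backgrounds of 12.4% and 14.7% of all genes. BCAR1, the p130Cas docking protein of focal adhesions, rose from 107 ± 6.38 to 478 ± 14.5 CPM, with a log2 difference of 2.15 (SE 0.046, adjusted p = 5.27e-15 from edgeR's test). VCL, vinculin, fell by 1.14 on the log2 scale, as did the actin-binding adaptor TNS3 (-1.32) and the talin-binding KANK2 (-1.83). FERMT3, the kindlin of blood cells, fell by 1.89 on at most 39 counts, and its call was lost without the first untreated library (adjusted p = 0.0650 from edgeR's test). TNS4 had 18, 24 and 13 counts in untreated and 0 in each rhCYGB library. Against the floor of 3 counts per library TNS4 was at least 5.30-fold lower, with its untreated mean taken as exact. FERMT3 and TNS4 met the filter through the untreated group alone, in which they were higher, so a call for them says less. FERMT2, the kindlin of most adherent cells, and ZYX, zyxin, both rose by 0.95. TLN1, talin, fell by 0.14. PTK2, the focal adhesion kinase, had a value of 0.12 that turned to -0.026 and -0.0497 with upper-quartile factors and library totals. ILK, the kinase-like adaptor that binds beta subunits, stood at -0.16 (adjusted p = 0.0397 from edgeR's test), and over the alternatives its adjusted p lay between 4.27e-04 and 0.260.

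Of 12 genes of the basement membrane and its other receptors 7 were tested and 6 fell, with a median log2 fold change of -0.99 over the 7. RPSA rose by 0.15 on the log2 scale, but its mean FPKM was 756 in untreated and 748 in rhCYGB libraries. Its direction thus differed between TMM-scaled counts and FPKM. Of all genes tested, 38.6% were lower and 39% higher. The matrix proteoglycans HSPG2 (perlecan) and AGRN (agrin) fell by 1.35 and 1.29, and the syndecan SDC1 by 1.08. The other laminin receptors BCAM and DAG1 (dystroglycan) fell by 0.99 and 0.84, under 2-fold. The nidogens NID1 and NID2, which tie laminin to collagen, were not tested. All 4 tested hemidesmosome genes, PLEC, DST, COL17A1 and CD151, fell by less than 2-fold, with values between -0.42 and -0.094, while 38.6% of all genes tested were lower. KRT5 and KRT14 had 0 counts.

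Of 16 other integrin ligands, 8 were tested, with 2 higher and 4 lower by 2-fold or more, against 12.4% and 14.7% of all genes. CCN1, a matricellular ligand of ITGAV integrins, rose from 121 ± 13.9 to 519 ± 7.62 CPM, and L1CAM rose by 1.21 on the log2 scale. MFGE8, FBN1 and CCN2 fell, with log2 fold changes of -1.53, -1.61 and -1.04. VTN, vitronectin, had 45, 34 and 43 counts against 13, 12 and 8 (-1.69). It met the filter through the untreated group alone, in which it was higher, so its call says less. FN1, fibronectin, was barely detected, at 0.256 CPM in untreated and 0.402 in rhCYGB-treated cells on average, and did not pass (adjusted p = 0.317 from edgeR's test).

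**Figure D5:**
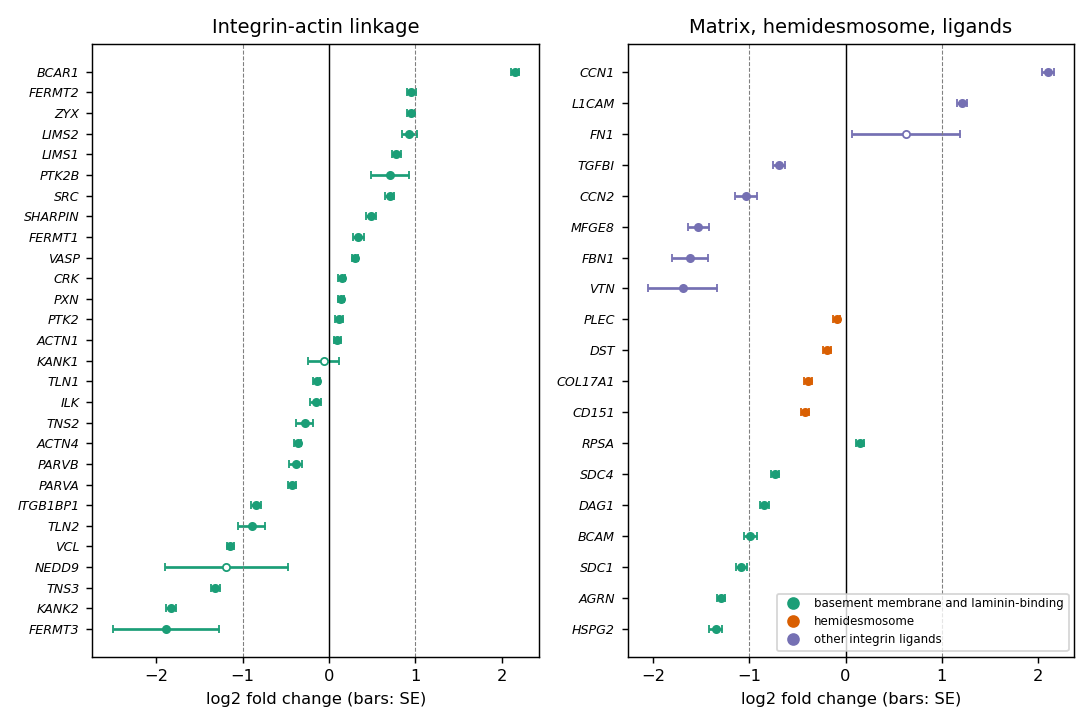
Log2 fold change (x axes) with bars of 1 standard error for the tested partner genes, integrin-actin linkage on the left and matrix, hemidesmosome and ligand genes on the right, without TNS4, whose rhCYGB counts were 0. BCAR1 (2.15) and CCN1 (2.104) lie farthest right, and open points did not pass an adjusted p under 0.05.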

How the data were processed

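RNA of MIA PaCa-2 cells, 3 untreated and 3 rhCYGB-treated libraries, was analysed from the deposited tables, with samples grouped by their titles. Per the submitters' processing notes, reads were checked with FastQC 0.11.7, mapped with HISAT2 2.1.0 and assembled with StringTie 2.1.3b. The notes name the build mm10, a mouse build, while the table lists human RefSeq genes, so its positions are given without a build and are not compared with GRCh38. Read counts per gene and per transcript were deposited by the authors without normalization. FPKM values were deposited by the authors, scaled to transcript length and mapped reads. No use was made of the TPM values that the authors also deposited.

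Counts were filtered with filterByExpr, scaled with TMM and tested with edgeR 4.0.16 in R 4.3.3 (glmQLFit, glmQLFTest) over all genes. The standard error is the fold change over the square root of F. Transcript usage was tested with diffSpliceDGE. Alternatives were 3 other scalings, DESeq2 1.42.0, limma 3.58.1 on log2(FPKM + 1) and log2(FPKM + 0.1), other filters, summed transcripts, a replicate block and leaving out each library. On simulated data, edgeR called 184 of 193 changed and 6 of 14297 unchanged genes. In that simulation few genes changed, equally up and down, and all by more than 2-fold. In the real libraries 77.6% of genes passed, so the simulation does not show how smaller changes or the scaling would fare. Within a group, libraries differed by more than counting error, with a chi-square per degree of freedom between 4.81 and 6.88. Intervals and floors cover counting error only.

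The members, the partner lists and the tests were chosen with earlier results of these data known. A result for 1 member and 1 marker each is not reported here, though both enter the counts and sums. Named are all other members, and from each partner list at most 8 genes called by 2-fold plus TLN1, PTK2, ILK, FN1, DAG1 and CD151. FERMT2, ZYX, PXN, CRK, ACTN1, BCAM, RPSA, NID1, NID2 and the hemidesmosome genes other than CD151 were named after their values were seen. Of 7 ratios fixed, 2 were left out because a member had under 10 counts in a library.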

Additional observations from a re-analysis of the deposited data

How the results depend on the processing

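Over 16 alternatives each, the log2 fold changes of ITGB1, ITGA3, ITGA5, ITGA6, ITGA10, ITGAV, ITGB5, ITGB8, LAMA2, LAMA5, LAMB1, LAMB2 and LAMC1 kept their direction and passed throughout. With limma on log2(FPKM + 1), which shrinks rare genes, 0 members were higher and 2 lower by 2-fold, against 1 and 8. With log2(FPKM + 0.1), 0 were higher. Upper-quartile factors and library totals each gave 10 lower by 2-fold, among them ITGA5 and ITGA6 (-1.08 and -1.11 for ITGA6). With the adjusted p alone 4 were higher and 14 lower, and with a limit of 1.5-fold 13 were lower. Among ligands, limma on log2(FPKM + 1) gave 1 higher and 1 lower. Library totals gave 5 lower basement membrane genes, against 3. Leaving out a library gave 3 to 5 for that list, and 1 to 2 higher actin linkage genes. Without untreated library 1 or 3 that second count was 2, and without rhCYGB library 2 the first was 5.

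With counts in place of FPKM, the rise of the share was 4.90 percentage points for ITGA3 (4.07 from FPKM), 5.73 for ITGB1 (4.52), 3.87 for laminin-binding subunits (3.09) and 7.26 for LAMA5 (1.94). Leaving out a library moved the LAMC1 share difference between -0.216 and 0.484 (-0.0417 without rhCYGB library 2), the LAMA5 share difference between 0.972 (without rhCYGB library 3) and 2.65, and the log2 ratio difference of LAMA3 to LAMA5 between -0.253 and 0.0267. The first and the last had no direction beyond their spread.

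Leaving out a library gave -0.45 to 0.15 for ITGA7 and -0.09 to 0.25 for LAMB3. Log2 fold changes turned sign, without a call in the new direction, for ITGA7 (0.15 without untreated library 2, 0.11 without rhCYGB library 2), LAMB3 (-0.00482 with upper-quartile factors, -0.0263 with library totals, -0.0131 and -0.0441 with limma on log2(FPKM + 1) and log2(FPKM + 0.1), -0.09 without rhCYGB library 3) and PTK2 (-0.026, -0.0497, -0.0457 and -0.0483 with the same 4 settings). LAMA4 turned to 0.21 and 0.61 with the limma fits and passed. The cause was not tested for any of these.

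Same-numbered libraries of the groups did not deviate together (correlations of -0.0479, 0.00715 and 0.00554, across genes), and 2 of 6 libraries correlated best with their own number. With the replicate block, 1 member was higher and 8 lower by 2-fold, as without it, and 4 and 14 passed the test. The block ended the call of ILK (adjusted p = 0.0505 from edgeR's test).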
